A study of Homo sapiens with 6 samples.

Results

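The 10 genes described here carry the transcripts of the G1 cell cycle control circuit: the D-type cyclins Ccnd1, Ccnd2 and Ccnd3, their kinases Cdk4 and Cdk6, the kinase Cdk2 with the E-type cyclins Ccne1 and Ccne2, the retinoblastoma gene Rb1 and the kinase inhibitor gene Cdkn1b, which encodes p27. They were chosen by identifier (ID) from a list of 10 mouse Ensembl genes, and all 10 are among the 34866 rows of the deposited table. The table carries no symbols. The symbols are those of the list by which the genes were chosen, and their pairing with the IDs was not checked against a mouse annotation here.

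The samples are 6 preparations labelled MKN45, a cell line established from a human gastric cancer, which the study's design calls MUC6 negative. In 3 of them (control shRNA replicates 1 to 3) an adenovirus delivered a control short hairpin RNA (shRNA). In the other 3 (Golph3 shRNA replicates 1 to 3) an adenovirus delivered shRNA against Golph3, a Golgi membrane protein. All 6 therefore received a virus, and a group without virus was not analysed here. The labels do not give the hairpin sequences, how many hairpins were used or the time after infection. Nor do they say whether the numbers in the titles stand for separate cultures or for different hairpins. The p-values therefore rest on a spread between libraries that could be technical alone or could include differences between hairpins.

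Polyadenylated RNA was sequenced, and the table holds estimated counts per gene. The libraries held 6287037 to 7355140 estimated counts in the control group and 4977645 to 5676169 in the Golph3 shRNA group, so depth was lower in every Golph3 shRNA library. The row names are mouse IDs and the submitters' processing notes name the mouse build mm10, while the labels give human cells. The table does not settle which of these is right: human reads may have been counted on the mouse annotation, or the cells may have been mouse. A level here is a count assigned to a mouse ID, and levels of different IDs are not ranked against each other. Sums, shares and ratios over IDs are given only to compare their values between libraries. The level of Golph3 itself and the markers of gastric epithelium and other cell types, which would check the labels, were not analysed here, since only the 10 IDs could be paired with symbols.

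In this circuit, D-type cyclins bind CDK4 or CDK6 and begin the phosphorylation of the RB protein, which releases E2F transcription factors from repression. E2F then raises the genes for cyclin E, and cyclin E with CDK2 completes RB phosphorylation before DNA replication. The p27 protein inhibits cyclin E-CDK2 and also binds cyclin D-CDK4 complexes. Much of the control of these proteins lies in their synthesis, degradation and phosphorylation, none of which RNA counts measure.

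The circuit did not move in 1 direction. With Golph3 shRNA, transcripts of Ccnd3, Rb1, Ccne2, Cdk2 and Cdk4 rose and those of Ccnd1 and Cdkn1b fell, while Ccnd2 and Cdk6 did not pass the test and Ccne1 had too few counts to be tested. Ccnd3 had the highest fold change of the tested genes, 3.31-fold, and Ccnd1, of the same cyclin class, fell 1.53-fold. Of 9 members tested, 5 rose, 2 fell and 2 did not pass (edgeR quasi-likelihood test with Benjamini-Hochberg adjustment over all 11400 tested IDs, call at an adjusted p below 0.05). By the same rule 33.9% of all tested IDs were called, 16.1% as higher and 17.8% as lower. The 3 values of each group did not overlap for 7 of the 9 tested members, against 46.3% of all tested IDs. The median log2 fold change of the 9 was 0.34, against 0.0019 for all tested IDs. The median size regardless of sign was 0.46 against 0.31. The members were chosen with earlier results of these data known, so these comparisons with all tested IDs are descriptive only.

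Levels are given in CPM, counts set to a common library size with trimmed mean (TMM) factors, and fold changes as log2 of Golph3 shRNA over control with a standard error (SE). In bulk RNA, fewer cells that express a gene and less of its RNA per cell cannot be told apart. Of the 9 tested members the lowest level in any library was 10.6 CPM, well above the filter's minimum of 1.67 CPM, so none entered the test through 1 group alone.

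**Figure D1:**
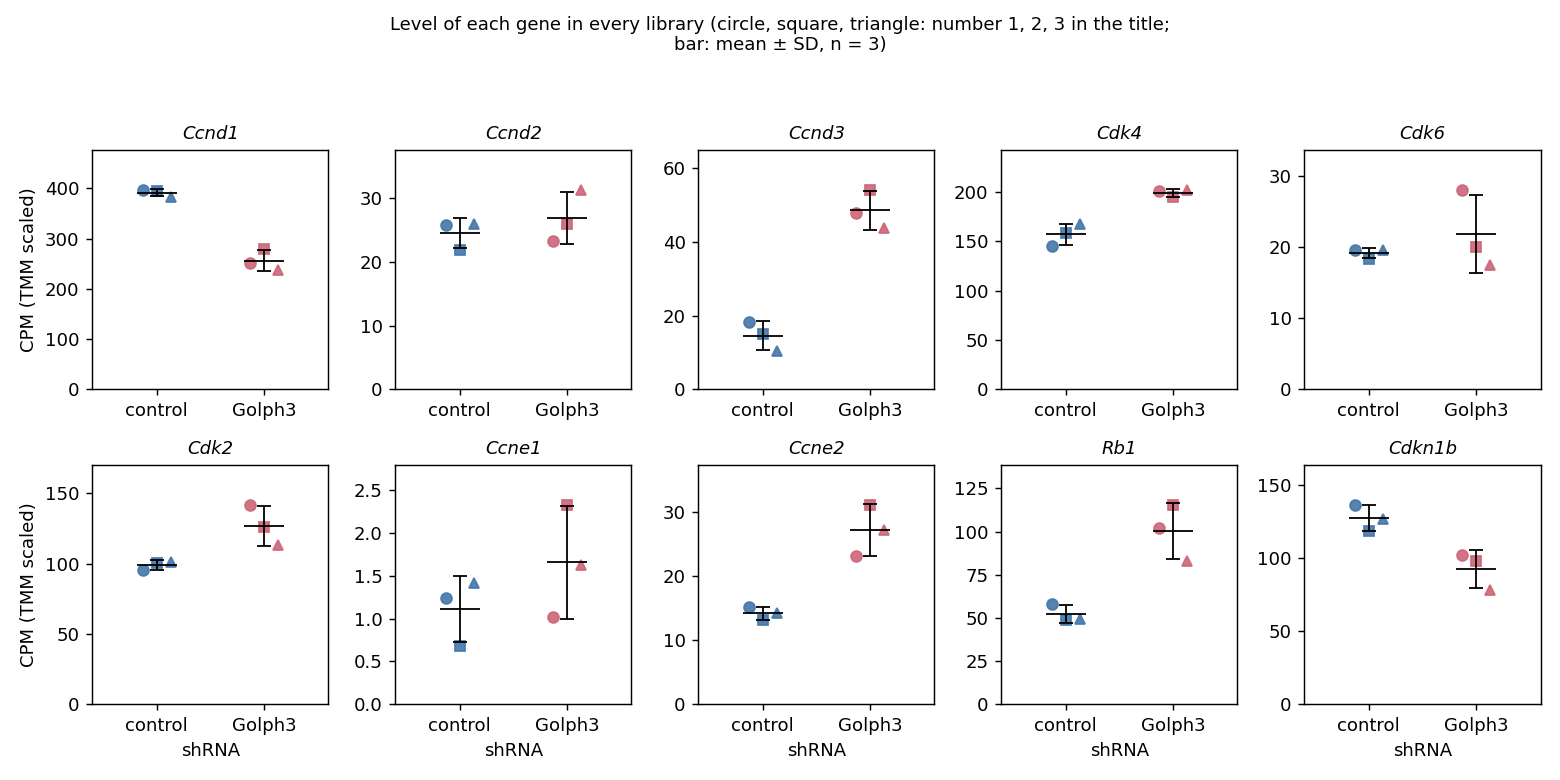
Level of each of the 10 genes in CPM (vertical axes, each from 0) in the 3 control shRNA libraries (blue) and the 3 Golph3 shRNA libraries (red), with circles, squares and triangles for numbers 1, 2 and 3 and black bars for the mean ± SD. The groups are separate for Ccnd1, Ccnd3, Cdk4, Cdk2, Ccne2, Rb1 and Cdkn1b and overlap for Ccnd2, Cdk6 and Ccne1.

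Among the D-type cyclins, Ccnd1 (ENSMUSG00000070348.5), the cyclin most directly coupled to growth factor and ERK signalling in many epithelial cells, had 397, 395 and 384 CPM in control replicates 1, 2 and 3 and 252, 279 and 237 CPM in Golph3 shRNA replicates 1, 2 and 3. The control values lay within a narrow band, and each Golph3 shRNA value was below all of them. The means were 392 ± 7.06 and 256 ± 21.1 CPM (SD, n = 3), and the log2 fold change was -0.61 (SE 0.072, edgeR adjusted p = 9.96e-06). A stronger fall was seen in 11.3% of all tested IDs.

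Ccnd3 (ENSMUSG00000034165.16), a D-type cyclin best known for its part in lymphoid and differentiating tissues, had 18.2, 15.1 and 10.6 CPM in the controls and 47.8, 54.1 and 43.7 CPM with Golph3 shRNA. The lowest Golph3 shRNA value was more than the highest control value by a wide margin, although the controls were themselves scattered. The means were 14.6 ± 3.85 and 48.6 ± 5.21 CPM (SD, n = 3), and the log2 fold change was 1.73 with an SE of 0.17 (edgeR adjusted p = 1.68e-06). A stronger rise was seen in 0.535% of all tested IDs. The estimates behind these values run from 66.7 to 117 counts in the controls and from 236 to 302 with Golph3 shRNA, and they have fractional parts.

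Ccnd2 (ENSMUSG00000000184.12) had 25.8, 21.8 and 26.0 CPM in the controls and 23.3, 26.0 and 31.3 CPM with Golph3 shRNA. The groups overlapped, and the log2 fold change was 0.13 (SE 0.15, edgeR adjusted p = 0.522). Its 95% interval ran from -0.18 to 0.45, so both a fall and a rise up to these limits are within the error.

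The 3 D-type cyclins together fell from 431 ± 10.3 to 331 ± 24.3 CPM in sum (SD, n = 3, not tested). Within that sum the make-up differed. Ccnd1 held 90.0% to 91.4% of the assigned D-type counts in the control libraries and 76.0% to 78.0% in the Golph3 shRNA libraries. Ccnd3 held 3.38% ± 0.82 in the controls and 14.6% ± 0.55 with Golph3 shRNA. These shares were computed after the values had been seen and are not corrected for transcript length, so they describe how the assigned counts shifted and not the molar make-up of the class.

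The kinases of the D-type cyclins differed less between the groups. Cdk4 (ENSMUSG00000006728.12) had 145, 158 and 167 CPM in the controls and 201, 195 and 202 CPM with Golph3 shRNA. All 3 Golph3 shRNA values were close together and above the controls, with means of 157 ± 11.0 and 199 ± 3.93 CPM (SD, n = 3). The log2 fold change was 0.34 (SE 0.073, edgeR adjusted p = 0.00182), a 1.27-fold rise.

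Cdk6 (ENSMUSG00000040274.11), the close relative of Cdk4 that binds the same cyclins, had 19.6, 18.3 and 19.5 CPM in the controls and 28.0, 20.1 and 17.5 CPM with Golph3 shRNA. The Golph3 shRNA values lay on either side of the controls, and replicate 1 alone was far above them. The log2 fold change was 0.19 (SE 0.18, 95% interval -0.19 to 0.56, edgeR adjusted p = 0.441), and without Golph3 shRNA replicate 1 it was -0.030 (edgeR adjusted p = 0.916).

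Of the cyclin E-CDK2 genes, Cdk2 (ENSMUSG00000025358.16) had 95.3, 100 and 101 CPM in the controls and 142, 126 and 113 CPM with Golph3 shRNA. The groups were separate, but the Golph3 shRNA values were spread, with means of 98.9 ± 3.23 and 127 ± 14.2 CPM (SD, n = 3). The log2 fold change was 0.36 (SE 0.089, edgeR adjusted p = 0.00554), a 1.28-fold rise. Without Golph3 shRNA replicate 1, the highest library, it was 0.27 and missed the threshold (edgeR adjusted p = 0.0505).

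Ccne2 (ENSMUSG00000028212.16), a cyclin that activates CDK2 and a classical E2F target, had 15.3, 13.2 and 14.2 CPM in the controls and 23.1, 31.2 and 27.3 CPM with Golph3 shRNA. Every Golph3 shRNA value was above every control value. The means were 14.2 ± 1.02 and 27.2 ± 4.02 CPM (SD, n = 3), and the log2 fold change was 0.94 with an SE of 0.16, or 1.92-fold (edgeR adjusted p = 0.000315).

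Ccne1 (ENSMUSG00000002068.16), the other E-type cyclin, had 8.36, 5.28 and 8.71 estimated counts in the controls and 5, 13.1 and 8.74 with Golph3 shRNA. Golph3 shRNA replicate 2 was the only library above the filter's minimum, which had to be met in 3, so the gene was not tested. The groups overlapped at 0.68 to 1.42 and 1.01 to 2.33 CPM. With no filter the log2 fold change was 0.56 with a 95% interval from -0.79 to 1.92 (edgeR adjusted p = 0.618), so a change of the size seen for Ccne2 was not detectable at this depth. Because a mouse gene model may collect only part of the reads of a human transcript, these low counts do not show that the gene is little expressed.

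Rb1 (ENSMUSG00000022105.6), the pocket protein gene whose product holds E2F in check, had 58.1, 48.7 and 49.5 CPM in the controls and 102, 115 and 82.9 CPM with Golph3 shRNA. The groups were far apart relative to their spread, with means of 52.1 ± 5.20 and 100.2 ± 16.4 CPM (SD, n = 3). The log2 fold change was 0.94 (SE 0.12, edgeR adjusted p = 1.84e-05), or 1.93-fold, and 3.46% of all tested IDs rose more.

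Cdkn1b (ENSMUSG00000003031.14), the p27 gene, had 136, 119 and 126 CPM in the controls and 102, 97.9 and 77.9 CPM with Golph3 shRNA. All Golph3 shRNA values were below all control values, with means of 127 ± 8.89 and 92.7 ± 13.1 CPM (SD, n = 3). The log2 fold change was -0.46 (SE 0.10, edgeR adjusted p = 0.00229), a 1.37-fold fall.

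**Figure D2:**
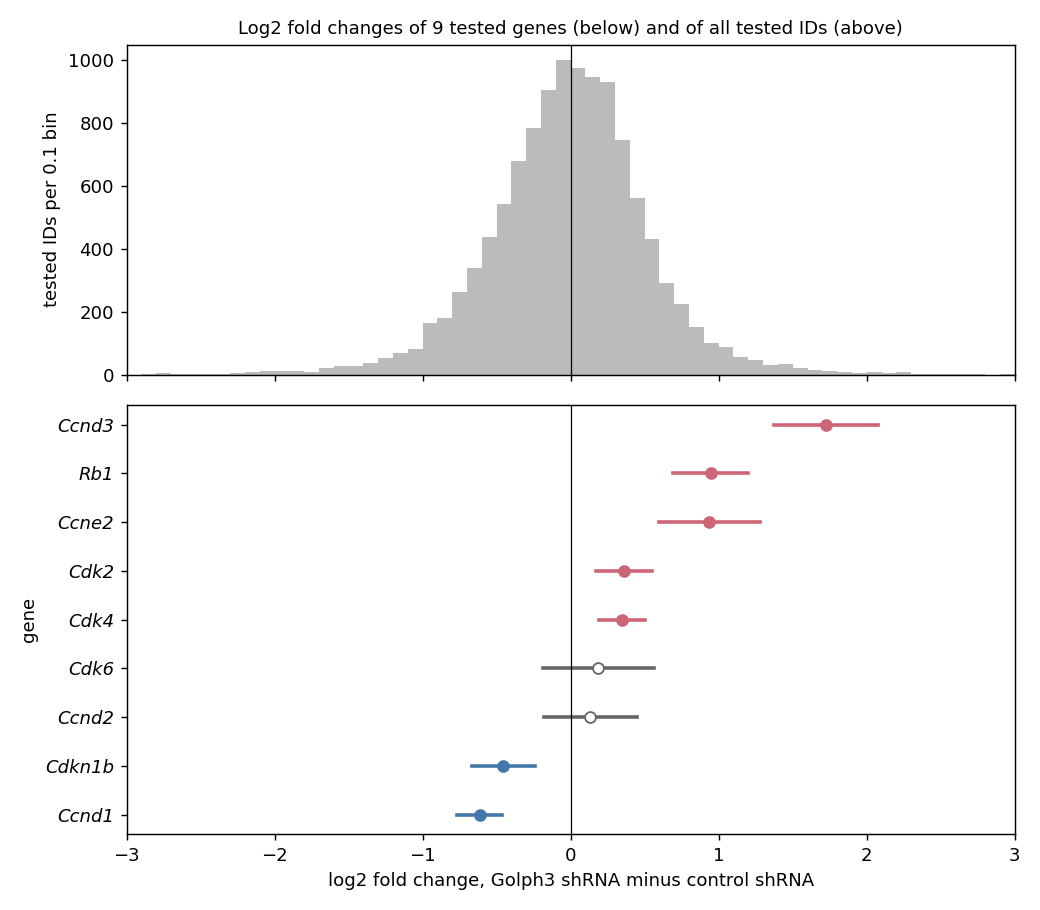
Log2 fold changes (horizontal axis) of the 9 tested genes with 95% intervals (lower panel; red rose, blue fell, open grey not called) under the distribution of all 11400 tested IDs in bins of 0.1 (upper panel; IDs beyond 3 in either direction lie outside the axis). Ccnd3 at 1.73 lies in the right tail of the distribution, while Cdk4 at 0.34 and Cdk2 at 0.36 lie in its body.

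Sizes read differently against the table as a whole. A change smaller in size than that of Ccnd3 was seen in 98.9% of tested IDs, and the figure was 92.4% for Rb1, 92.2% for Ccne2 and 79.1% for Ccnd1. For Cdkn1b it was 67.0%, for Cdk2 56.1% and for Cdk4 54.4%. The calls of Cdk2 and Cdk4 therefore rest on changes of ordinary size in genes with small error.

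Ratios between members of 1 library depend little on how the libraries are scaled, so 6 pairs were compared as log2 ratios of CPM with 0.5 added. The added value matters for low counts, above all those of Ccne1. With 3 libraries against 3 the exact two-sided permutation test cannot go below p = 0.1, and after Benjamini-Hochberg adjustment over the 6 pairs the lowest value was 0.2, so no pair could pass. The ratio of Ccnd3 to Ccnd1 was -4.41, -4.66 and -5.12 in the controls and -2.39, -2.36 and -2.42 with Golph3 shRNA, a mean difference of 2.34 or 5.06-fold (exact permutation p = 0.1). The Golph3 shRNA libraries were nearly alike in this ratio, and the controls were not.

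The ratio of Ccnd2 to Ccnd1 was -3.97 ± 0.15 in the controls and -3.24 ± 0.29 in the Golph3 shRNA libraries (SD, n = 3). The groups did not overlap, and the difference was 0.74 (exact permutation p = 0.1), of which Ccnd1 gave the larger part, with a fitted log2 fold change of -0.61 against 0.13 for Ccnd2. The ratio of the inhibitor gene Cdkn1b to the kinase gene Cdk2 was 0.52, 0.24 and 0.32 in the controls and -0.47, -0.36 and -0.54 with Golph3 shRNA. The difference was -0.81, or 1.76-fold lower, without overlap (exact permutation p = 0.1). Since all Golph3 shRNA values of Cdkn1b lay below the controls and all those of Cdk2 above, this separation was already given. The same holds for Ccnd3 to Ccnd1, so neither separation adds support to the calls.

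The other 3 pairs overlapped between the groups. The ratio of Cdkn1b to Ccnd1, the genes that fell, differed by 0.16 (exact permutation p = 0.3), that of Cdk6 to Cdk4 by -0.19 (exact permutation p = 0.5) and that of Ccne2 to Ccne1 by 0.50 (exact permutation p = 0.2). The last rests on the low counts of Ccne1, and was 0.41 with 0.1 CPM added and 0.62 with 2 CPM added. Single libraries decided the size of the other 2. The Cdk6 to Cdk4 difference was -0.37 without Golph3 shRNA replicate 1 and -0.11 without control replicate 1. It was -0.034 when Golph3 shRNA replicate 3 was left out. The Cdkn1b to Ccnd1 difference was 0.071 without Golph3 shRNA replicate 1 and 0.10 without control replicate 2.

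**Figure D3:**
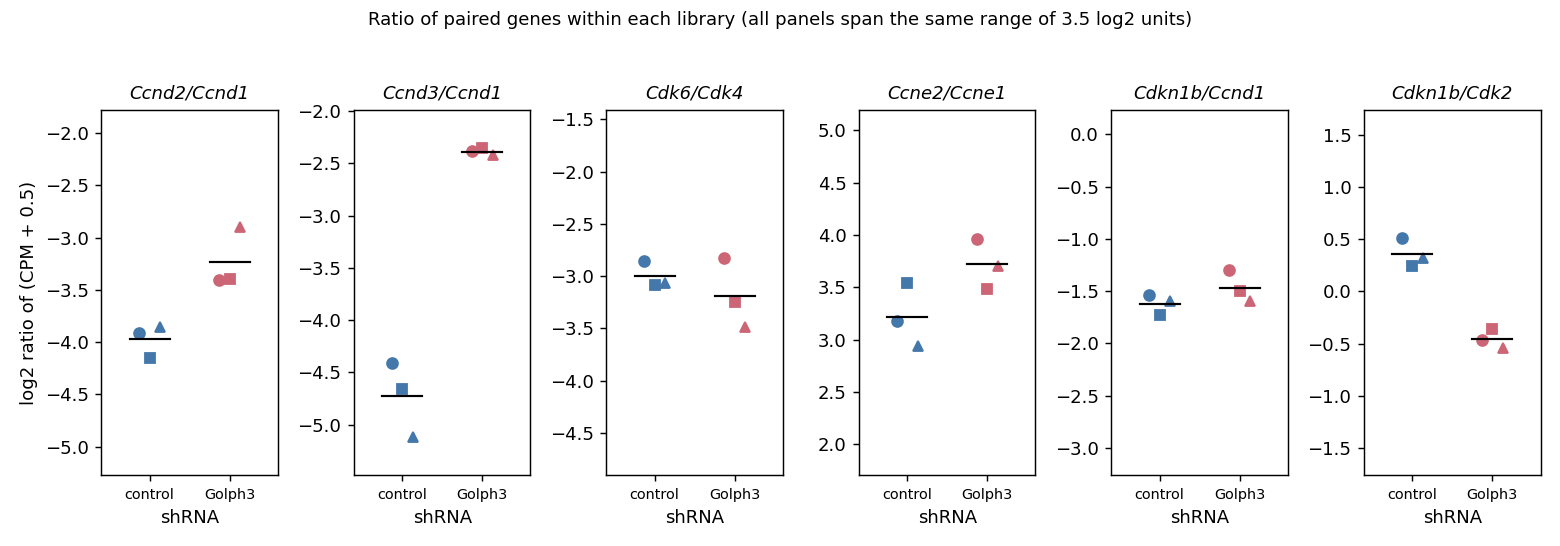
Log2 ratio of (CPM + 0.5) for 6 pairs of genes in each library (blue control shRNA, red Golph3 shRNA; circles, squares and triangles for numbers 1, 2 and 3; black line, group mean); each panel spans the same range. The groups are separate for Ccnd2/Ccnd1, Ccnd3/Ccnd1 and Cdkn1b/Cdk2. For Ccnd3/Ccnd1 and Cdkn1b/Cdk2 this follows from the separate levels of the single genes.

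The libraries of a group were not alike in every gene. Among the Golph3 shRNA libraries, replicate 2 had the highest value for 5 members (Ccnd1, Ccnd3, Ccne1, Ccne2 and Rb1) and replicate 3 the lowest for 6 (Ccnd1, Ccnd3, Cdk6, Cdk2, Rb1 and Cdkn1b). Replicate 1 was highest for Cdk6, Cdk2 and Cdkn1b. The coefficient of variation, SD over mean, ran from 1.97% for Cdk4 to 39.7% for Ccne1 in the Golph3 shRNA group and from 1.8% for Ccnd1 to 34.5% for Ccne1 in the controls. After Ccne1, the most scattered members were Ccnd3 in the controls (26.3%) and Cdk6 with Golph3 shRNA (24.9%).

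The members also differed in whether their estimated counts were whole numbers. A whole count does not show that reads were assigned correctly, since human reads may have been counted on the mouse annotation. Ccnd1, Cdk2, Rb1 and Cdkn1b had whole estimated counts in all 6 libraries, and all 4 passed the test, where 35% of the 6263 tested IDs with whole counts were called in the same fit. The other 6 members had fractional estimates, as reads divided between gene models would give, and the values of Ccnd3, Cdk4 and Ccne2 among the called genes are uncertain to that extent. The part of divided reads in their changes was not tested. When libraries were thinned to the smallest total, which removes the difference in counting depth, the same number of members was called, 5 higher and 2 lower.

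**Figure D4:**
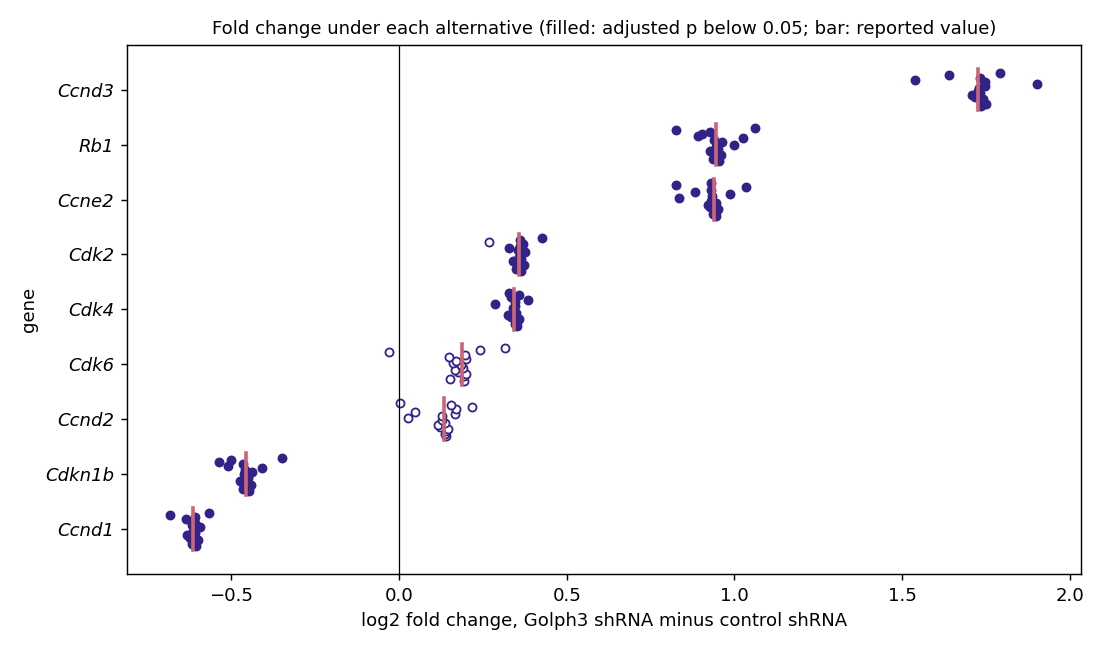
Log2 fold change of the 9 tested genes (horizontal axis) under each alternative of test, scaling, filter, rounding, depth, block or left-out library (points, filled where the adjusted p was below 0.05), with the reported value as a red bar. Points of the 7 called genes stay on 1 side of 0, Cdk2 has 1 open point, and Ccnd2 and Cdk6 are open throughout.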

How the data were processed

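The deposited values are unscaled estimated counts by gene ID for 6 libraries from a stranded mRNA kit, per the labels' protocols. Genome build mm10 is named in the submitters' processing notes. For the aligner or quantifier, annotation release, strand setting and filters, nothing is stated in the labels or the file header. None of the IDs (0) matched the human gene name tables.

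Estimated counts were rounded, and edgeR 4.0.16 in R 4.3.3 was fitted to all 11400 IDs kept by filterByExpr, scaled by TMM and tested by quasi-likelihood F with p-values adjusted by Benjamini-Hochberg over all of them. The SE is the log2 fold change over the square root of F. Ratios of 6 gene pairs used a pseudocount of 0.5 CPM and exact permutation. All 10 members were to be named. The members, lists and tests were chosen with earlier results of these data known. A list of further pathway genes and a list of cell type markers, both by symbol, were not analysed here. Alternatives were DESeq2 1.42.0, limma-voom (limma 3.58.1), other scalings and filters, unrounded counts, thinning, whole counts only, a replicate block and each library left out. The edgeR script was also run on simulated data with known changes. The outcome of that run is not reported here, and it lends no support to the calls. Replicates of a group differed by more than sampling noise (chi-square over genes, divided by its degrees of freedom, 3.29 to 6.52), so none was counted as a duplicate.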

Additional observations from a re-analysis of the deposited data

How the results depend on the processing

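The 7 calls kept their direction in every alternative in which the gene was tested. DESeq2, limma-voom, the other scalings and filters, unrounded counts, thinning and the replicate block each called 7 members, 5 higher and 2 lower. The fit to IDs with whole counts alone called 4 members, 2 higher and 2 lower, because it holds only 4. Leaving out each library called 6 to 7 members, the exception being Cdk2 without Golph3 shRNA replicate 1 (log2 fold change 0.27, edgeR adjusted p = 0.0505). Cdk6, not called in any alternative, ran from -0.030 without Golph3 shRNA replicate 1 to 0.32 without Golph3 shRNA replicate 3; the cause was not tested. Ccnd2 ran from 0.0033 to 0.22 and was not called in any. Over all alternatives Ccnd3 ran from 1.54 to 1.90 and Ccnd1 from -0.68 to -0.57. The median over all IDs moved by less than 0.1 (log2) under each scaling. With the replicate number as a block, Cdk2 had a log2 fold change of 0.35 (edgeR adjusted p = 0.00839), and no member's call changed. Deviations of same-numbered libraries correlated at 0.029, 0.087 and 0.041. Deviations were taken from each group's mean, so a library's covariances with the libraries of the other group cancel in sum. Correlations of differently numbered libraries were mostly negative, and some had to be, given the positive same-numbered ones. They ran from -0.082 (control replicate 2 with Golph3 shRNA replicate 3) to 0.037 (control replicate 1 with Golph3 shRNA replicate 3). All were small, so the numbers were not taken as pairs. The 6 ratio differences kept their sign under other pseudocounts (0.1 and 2 CPM), the block and left-out libraries, and moved by less than the SD of the more variable group, though in some cases by more than that of the other group. Over left-out libraries Ccnd3/Ccnd1 ran from 2.15 (without control replicate 3) to 2.50, Ccnd2/Ccnd1 from 0.57 (without Golph3 shRNA replicate 3) to 0.82, Cdkn1b/Cdk2 from -0.87 to -0.73, Ccne2/Ccne1 from 0.36 to 0.66, Cdk6/Cdk4 from -0.37 to -0.034 and Cdkn1b/Ccnd1 from 0.071 to 0.22. No alternative was run for further pathway genes, which were not analysed here. Low counts kept Ccne1 from being tested; the other members passed the filter.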
